A study of Mus musculus with 10 samples.

Results

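The 3 liver tumours of MLK3-knockout (KO) mice were set against the mean of the 3 other groups of the series, to find transcripts whose level lay outside the range spanned by liver and by wild-type (WT) tumours. The KO tumours are 3 of 10 libraries. The members were defined by their labels, as the 3 samples with the MLK3-KO genotype and DEN/PB treatment. This group was chosen with earlier results of these data known. Of 39056 genes in the count table, 21045 had at least 1 count and 15811 were tested.

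All mice were male C57BL/6 animals killed at 11 months of age. The KO tumour group (3 libraries) and the WT tumour group (3 libraries) came from mice that received 1 intraperitoneal dose of diethylnitrosamine (DEN, 5 µg per g body weight) when 2 weeks old. These mice drank water with 0.05% phenobarbital (PB) from 1 week later until death. The WT liver group (2 libraries) and the KO liver group (2 libraries) came from mice given plain water. No group received PB without DEN, or DEN without PB, so tumour tissue, DEN and PB cannot be told apart in any contrast with liver. The labels call the treated samples tumour tissue, but the protocol for RNA names only treated liver. Whether and how the tumour was cut free of liver is not stated in the sources used here. The series design calls the replicates biological.

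DEN is converted by hepatocyte enzymes into an agent that alkylates DNA and starts tumours, and PB promotes their growth. PB acts on the liver through the nuclear receptor CAR (Nr1i3), which with its relative PXR (Nr1i2) switches on drug-metabolising genes of the Cyp2b, Cyp2c and Cyp3a families. Cyp2b10 is the gene most often used to read CAR activity in mouse liver. MLK3, encoded by Map3k11, is a kinase that activates the JNK stress pathway.

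Levels are CPM, the reads of a gene over all reads of its library, scaled by edgeR's TMM factors. Fold changes are log2 values with standard errors (SE). Where no tool is named beside an adjusted p, it comes from edgeR's quasi-likelihood fit. In a bulk sample, fewer cells of a type and less RNA per cell cannot be told apart. Library totals ran from 12408749 to 18081487 counts, and 3 counts correspond to 0.156 to 0.231 CPM. Limits and intervals of this kind cover counting error only. Map3k11 itself stood at 10.0, 10.3 and 5.84 CPM in the KO tumours and at 5.38 and 5.81 in KO liver. WT liver held 7.92 and 14.9, and WT tumours 12.2, 9.54 and 14.3. Because the tags come from the 3' end and the deleted part is not named in the labels, the level is no check of the knockout or the labels. Hepatocyte markers were present in every group: the 14 tested genes summed to 78600 to 92700 CPM in KO tumours, 79300 to 91900 CPM in the livers and 140000 to 189000 CPM in WT tumours.

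One KO tumour library stood apart from the other two. A position was computed per gene, with 0 at the mean of the livers and 1 at the mean of the WT tumours. The genes used differed between WT tumours and the mean of both liver groups in edgeR's test. These were 1182 genes higher in WT tumours (7.48% of genes tested) and 1096 genes lower (6.93%). For the genes higher in WT tumours, the median position was 0.65 in KO tumour replicate 1, 0.17 in replicate 2 and 0.59 in replicate 3. For the genes lower in WT tumours, it was 0.34, 0.05 and 0.27 in the same order. Replicate 2 thus lay next to the livers on both scales, and replicates 1 and 3 lay part of the way to the WT tumours. As a group, the KO tumours lay between the ends for 88.6% of the genes higher in WT tumours and 84.7% of the genes lower. They passed the WT tumour end for 5.5% and 0.456%, and lay on the far side of liver for 5.92% and 14.9%. The WT tumour and liver libraries also chose these genes and set both ends, so their own positions are fixed by the choice. Choosing genes with a clear gap can also widen the span, which favours KO tumour positions inside it. The shares between and beyond the ends describe these genes only and were not tested.

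**Figure D1:**
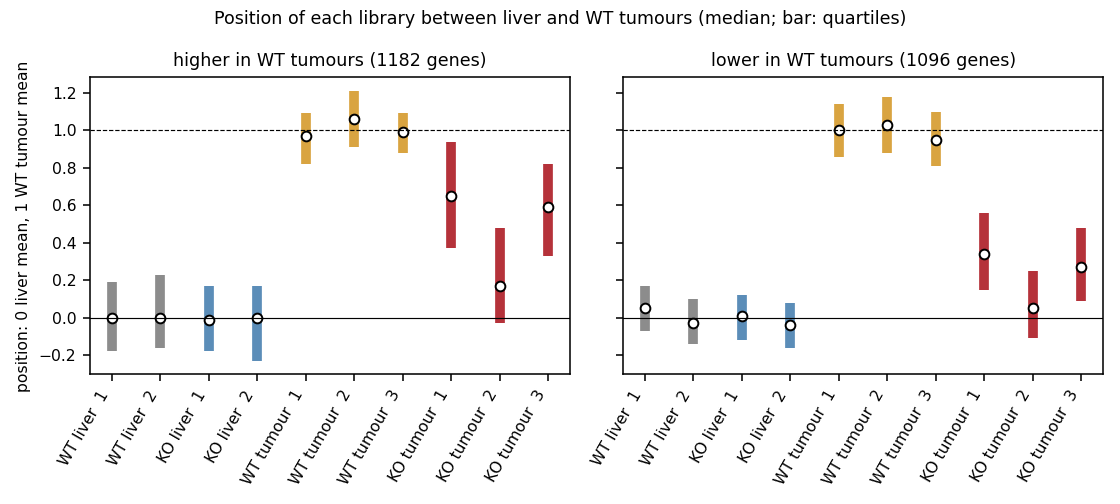
Position of each library between liver (0) and WT tumours (1), as the median (white point) and quartiles (bar) over 1182 genes higher and 1096 genes lower in WT tumours. KO tumour replicate 2 has medians of 0.17 and 0.05, below the other KO tumours.

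Against the mean of the other groups, each group weighing the same on the log2 scale, 45 genes were higher in KO tumours (0.285% of genes tested) and none was lower (0%) at an adjusted p under 0.05 in edgeR. At an unadjusted p under 0.05 there were 1185 higher and 280 lower. DESeq2 called 130 higher and 20 lower, and 41 of the 45 were among its calls. The number rested on single libraries: it was 15 without KO tumour replicate 1, 17 without replicate 3 and 156 without replicate 2. Of the 45 genes, 10 were called in each of the 10 fits that left out 1 library. Those 10 were Cyp2b10, Cyp2c29, Cyp2c37, Cyp2b9, Leap2, Chmp4c, Sult2a8, Mup16, Mup21 and Gm13775. Of the 45, 7 had no count in any library of at least 1 other group, and their fitted fold changes depend on the prior count.

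A gene can exceed the mean of the other groups and still lie inside their range. The range was therefore tested by asking that KO tumours differ in 1 direction from WT liver, KO liver and WT tumours alike, with the largest of the 3 p-values kept. By this test in edgeR, 0 genes lay above the range (0%) and 0 below (0%), with 22 and 22 at an unadjusted p under 0.05. DESeq2 gave 0 and 0 as well, with 24 and 34 at an unadjusted p under 0.05. Of the 45 called genes, 28 had a KO tumour mean between the other group means and 17 had a mean above all of them. Over all genes tested, the KO tumour mean was above the other 3 in 18.2%, below them in 14.9% and between them in 66.8%.

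**Figure D2:**
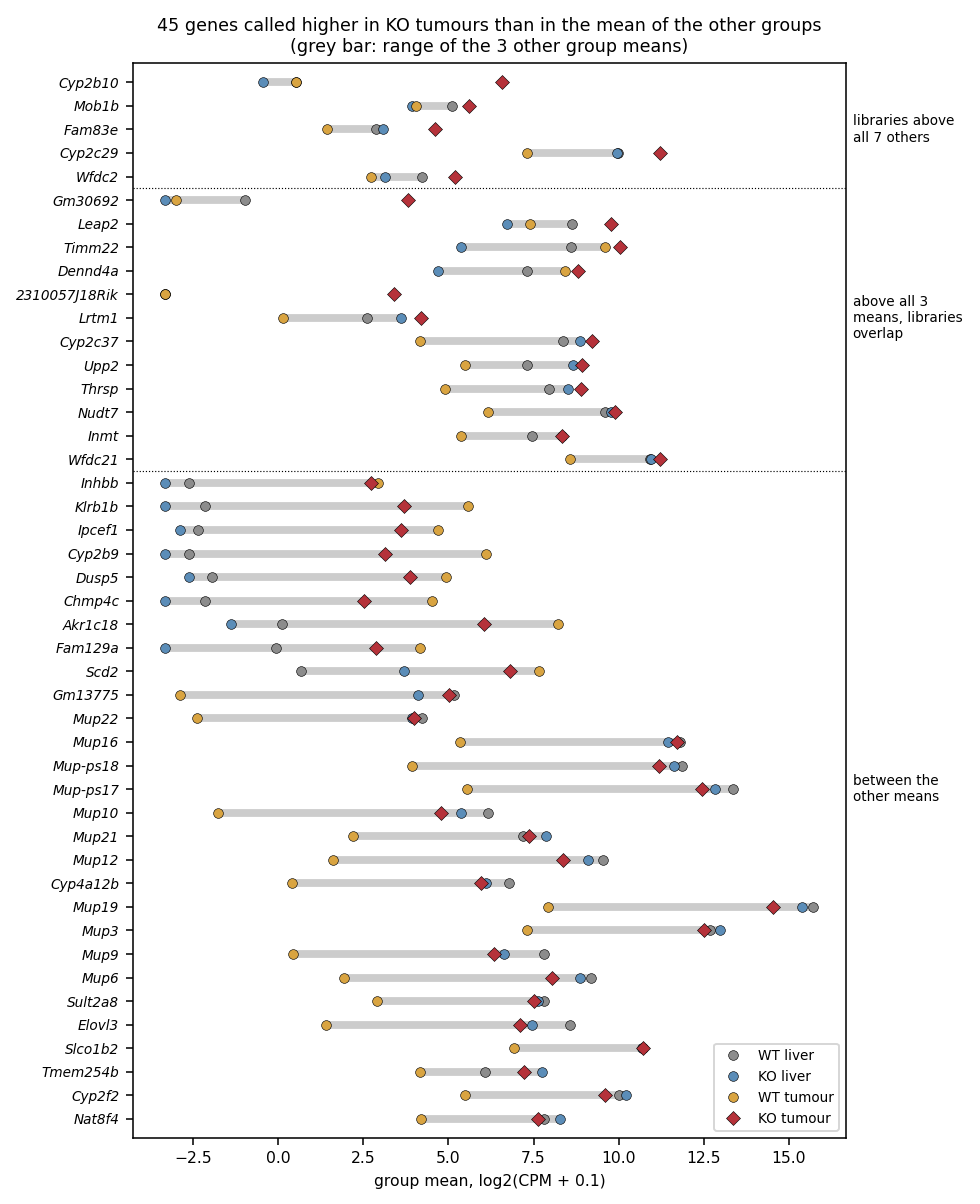
Group means, as log2(CPM + 0.1), of the 45 genes called higher in KO tumours than in the mean of the other groups, with the range of the other 3 group means as a grey bar. The KO tumour mean (red diamond) lies inside the bar for 28 genes and above it for 17, of which 5 have all KO tumour libraries above the 7 others.

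The libraries gave a second, untested description. All 3 KO tumour libraries lay above the 7 others for 131 genes (0.829% of genes tested) and below them for 114 (0.721%). Among those with at least 10 CPM in the highest library, 70 genes lay above and 103 below. The gap was mostly small. The KO tumour mean was a median of 1.4-fold above the nearest group mean in the 70 genes, and in 15 of them it was at least 2-fold. Among the 103 genes below, the median was 1.33-fold and 6 reached 2-fold. Of the 45 called genes, 5 were separated in this way, all above: Cyp2b10, Cyp2c29, Wfdc2, Mob1b and Fam83e.

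Cyp2b10 (chromosome 7, 25897620 to 25926624, plus strand, GRCm38) encodes the phenobarbital-induced cytochrome P450 of mouse liver. It stood at 91.3, 81.3 and 115 CPM in the KO tumours. Its level was 0, 0.437 and 3.59 CPM in WT tumours, 2.7 and 0 in the WT livers and 1.26 and 0 in the KO livers. The lowest KO tumour thus lay far above the highest of the other 7 libraries, although the WT tumours came from mice given the same PB. The KO tumour mean of 95.7 ± 17 CPM (SD, n = 3) was 70.9-fold the highest other group mean. The log2 fold change against the mean of the other groups was 6.49 (SE 0.86, adjusted p = 0.0037). Against single groups it was 6.17 over WT tumours (SE 1.17, adjusted p = 0.0054), 6.14 over WT liver (SE 1.41, adjusted p = 0.19) and 7.16 over KO liver (SE 1.5, adjusted p = 0.1). Its range p of 0.00057, unadjusted, was the smallest of all genes. The main call was lost with edgeR's robust fit (adjusted p = 0.23) and with DESeq2 (adjusted p = 0.074). The counts in the other libraries (43, 0, 22, 0, 0, 6 and 56 reads) ranged from none to 56 reads, with no common level in any group.

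**Figure D3:**
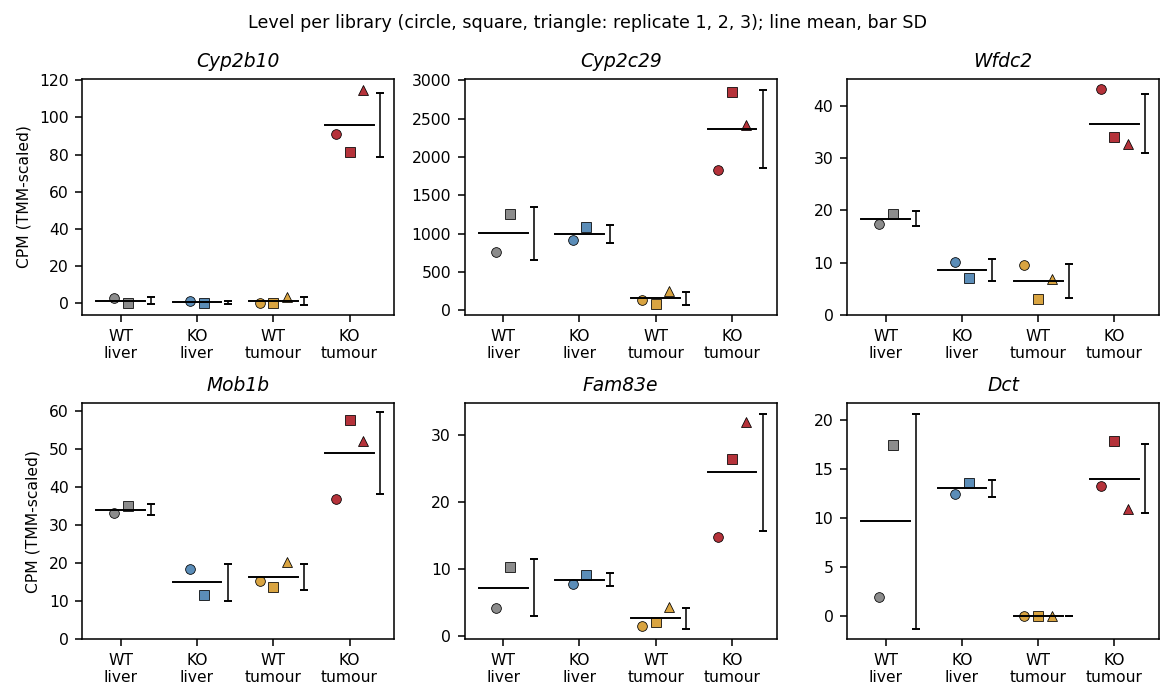
Level in CPM per library of the 5 called genes with all KO tumour libraries above the others, and of Dct, with the group mean (line) and SD (bar); n = 2 per liver group and 3 per tumour group. Cyp2b10 is near 0 outside the KO tumours, while the Dct values of KO tumours overlap those of the livers.

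The promoters of Cyp2b10 and its close relative Cyp2b9, which behaved differently in these tumours, are shown with that of Cyp2c29. They span 250 bases before to 50 after the transcript start, from RefSeq on GRCm38.p6. Capitals mark matches on either strand to the nuclear receptor half-site AGGTCA, the C/EBP motif TTGCNNAA and the TATA box TATAAA.
Cyp2b10 (chr7:25897408-25897707, plus strand): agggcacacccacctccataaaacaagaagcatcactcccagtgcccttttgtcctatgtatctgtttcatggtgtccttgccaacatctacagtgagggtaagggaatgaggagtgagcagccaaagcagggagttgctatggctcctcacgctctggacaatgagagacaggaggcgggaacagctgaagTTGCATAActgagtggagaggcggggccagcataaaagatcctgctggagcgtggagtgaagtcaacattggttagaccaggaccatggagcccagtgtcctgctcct
Cyp2b9 (chr7:26173159-26173458, plus strand): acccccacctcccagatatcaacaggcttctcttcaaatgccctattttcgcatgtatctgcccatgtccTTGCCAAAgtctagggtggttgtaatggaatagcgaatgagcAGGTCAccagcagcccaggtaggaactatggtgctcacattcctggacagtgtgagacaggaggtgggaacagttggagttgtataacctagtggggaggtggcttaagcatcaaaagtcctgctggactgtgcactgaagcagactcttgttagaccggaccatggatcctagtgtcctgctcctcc
Cyp2c29 (chr19:39286835-39287134, plus strand): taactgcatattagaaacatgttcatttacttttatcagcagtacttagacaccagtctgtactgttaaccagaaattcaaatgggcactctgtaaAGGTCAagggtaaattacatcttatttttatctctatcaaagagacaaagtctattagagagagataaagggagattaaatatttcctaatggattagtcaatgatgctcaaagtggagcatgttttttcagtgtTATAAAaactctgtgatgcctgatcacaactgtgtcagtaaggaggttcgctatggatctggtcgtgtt
The Cyp2b10 and Cyp2b9 windows were identical at 229 of 314 aligned positions (72.9%), and Cyp2b10 and Cyp2c29 at 48.8%. AGGTCA was found once each in the Cyp2b9 and Cyp2c29 windows and not in that of Cyp2b10. TTGCNNAA was found once each in Cyp2b10 and Cyp2b9, and TATAAA once in Cyp2c29. Of 32817 such windows, 16.3% held AGGTCA, 10.8% TTGCNNAA and 13.6% TATAAA on either strand. Such matches describe letters in these windows only. The distal enhancer through which PB acts on Cyp2b10 lies outside them. All 5 separated called genes had a RefSeq promoter entry.

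Cyp2b9 (chromosome 7, 26173411 to 26210661), a P450 that is female-biased in mouse liver, was called in the same contrast but lay between the other groups. It was at 5.09, 5.45 and 15.3 CPM in KO tumours and at 71.2, 70.7 and 62.6 CPM in WT tumours. In liver, 1 WT library held 0.126 CPM and the other 3 libraries no read. KO tumours thus lay above every liver library and below every WT tumour. The gene was lower in KO than in WT tumours by -2.98 on the log2 scale (SE 0.46, adjusted p = 0.0013). It was also the only gene called against WT liver, where 1 gene was higher (0.00632%) and 0 lower (log2 fold change 6.92, SE 0.83, adjusted p = 0.016). The size of that change rests on 2 reads in WT liver. The contrast gave 146 higher genes without KO tumour replicate 2. Cyp2b13, another female-biased member, gave 1.46, 0 and 4.25 CPM in KO tumours and 6.36, 0 and 3.98 in WT tumours, with no read in liver.

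Cyp2c29 (chromosome 19, 39269405 to 39330713, plus strand), an abundant liver P450 that metabolises drugs and arachidonic acid, went beyond its liver level. It stood at 1830, 2850 and 2420 CPM in KO tumours and at 761 and 1250 in the WT livers, with 911 and 1080 in the KO livers. WT tumours lay at the other end, at 138, 87.3 and 252 CPM. No KO tumour overlapped any other library. The log2 fold change was 2.13 (SE 0.26, adjusted p = 0.0023) against the mean of the other groups and 3.90 (SE 0.36, adjusted p = 1e-05) against WT tumours. Over the liver groups it was 1.23 (SE 0.37, adjusted p = 0.29) and 1.25 (SE 0.37, adjusted p = 0.25), and neither passed. Against the mean of both liver groups alone it was 1.24 (adjusted p = 0.08).

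The wider list of CAR and PXR target genes had 45 of 54 members tested. Of these, 4 were called higher (Cyp2b10, Cyp2b9, Cyp2c29 and Cyp2c37) and none lower, where 0.285% of all genes were called higher. Cyp2b10, Cyp2c29 and Cyp2c55 had all KO tumour libraries above the others, 6.67% of the list beside 0.829% of all genes, and no member had them below. The KO tumour mean exceeded every other group mean in 15 members and was under all of them in 2, where it did so in 18.2% and 14.9% of all genes. The median log2 fold change of the list was 0.64, beside 0.11 over all genes. It was 0.28 against the mean of both liver groups and 0.77 against WT tumours. The list summed to 10800 to 14800 CPM in KO tumours, overlapping WT liver (9680 to 12600) and KO liver (10500 to 12400), and to 4550 to 7630 in WT tumours. These comparisons describe the list and were not tested. Reads of the Cyp2b, Cyp2c and Cyp3a families may be shared between near-identical copies, since the handling of ambiguous reads is not given.

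Against WT tumours, 16 members were higher in KO tumours and 1 lower, where over all genes 514 were higher (3.25%) and 201 lower (1.27%). Cyp2c37 was at 422, 748 and 617 CPM in KO tumours, 314 to 574 in the livers and 17.1, 8.37 and 27.9 in WT tumours. Its range overlapped with liver. Cyp2c54 and Cyp3a11 were likewise at 162 to 327 and 1550 to 2510 CPM in KO tumours, inside or next to the liver values of 174 to 286 and 1490 to 2190. Cyp2c55, a strongly inducible member, was separated at 6.71, 11.9 and 14.8 CPM beside at most 4.18 elsewhere, but did not pass (log2 fold change 3.03, SE 1.27, adjusted p = 0.48). The pseudogene Cyp2c53-ps gave 18.8, 18.1 and 17.5 CPM beside at most 9.49 (adjusted p = 0.063 in edgeR and 0.0019 in DESeq2).

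The receptors and the shared electron donor gave no call in edgeR. Nr1i3 (CAR) was at 3.31, 9.84 and 9.73 CPM in KO tumours, 2.2 to 12.2 in the livers and 1.53 to 3.59 in WT tumours (adjusted p = 0.89). Nr1i2 (PXR) was at 83 to 94.4 CPM in KO tumours and 89.4 to 111 in the livers (adjusted p = 0.85). Por, which passes electrons to all microsomal P450s, was at 238, 162 and 345 CPM in KO tumours and 151 to 300 in the livers (adjusted p = 0.84). Other inducible members were highest in WT tumours, such as the aldo-keto reductase Akr1b7 (0.209 to 3.03 CPM in KO tumours, 6.56 to 16.7 in WT tumours) and the efflux pump Abcb1a (3.98 to 9.59 and 16 to 25.2 CPM).

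**Figure D4:**
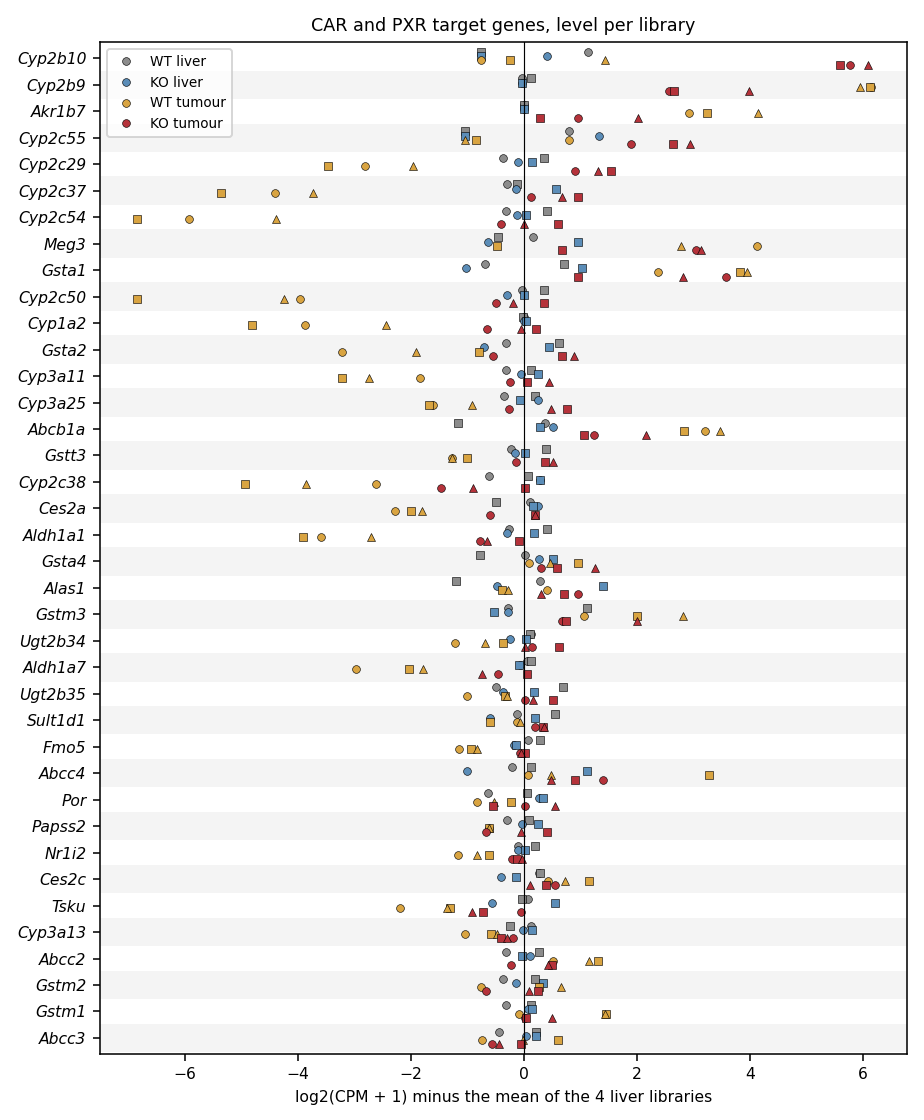
Level per library of the 38 CAR and PXR target genes with a group mean of at least 10 CPM, as log2(CPM + 1) minus the mean of the 4 liver libraries. Cyp2b10 and Cyp2c29 stand to the right of every other library in KO tumours, most Cyp2c and Cyp3a members sit near 0 in KO tumours and to the left in WT tumours, and Cyp2b9 is highest in WT tumours.

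The other 3 separated called genes had lower levels. Wfdc2 (chromosome 2, 164562413 to 164568510), a secreted protease inhibitor of epithelia, was at 43.1, 34 and 32.6 CPM in KO tumours, 17.4 and 19.4 in the WT livers, 10.1 and 7.15 in the KO livers and 9.53, 3.06 and 6.99 in WT tumours. The KO tumours did not overlap the 7 other libraries, and the change passed (log2 fold change 1.85, SE 0.31, adjusted p = 0.023). It did not pass without KO tumour replicate 1 (adjusted p = 0.17) or replicate 3 (adjusted p = 0.11). The bile duct marker list, whose cells also express such proteins, summed to 156 to 403 CPM in KO tumours. It summed to 109 to 246 CPM in the livers and 436 to 683 in WT tumours. The part of bile duct cells in the Wfdc2 level was not tested.

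Mob1b (chromosome 5, 88720855 to 88764220), an adaptor of the Hippo pathway kinases, was at 37, 57.8 and 52.1 CPM in KO tumours and at 33.2 and 35.1 CPM in WT liver. In KO liver it was at 18.5 and 11.6 CPM and in WT tumours at 15.3, 13.7 and 20.3 CPM. The lowest KO tumour was close to the WT livers (log2 fold change 1.26, SE 0.23, adjusted p = 0.038). The call held in 5 of the 10 fits without 1 library. Fam83e (chromosome 7, 45721212 to 45729492), a member of a family that anchors casein kinase 1, was at 14.8, 26.4 and 32 CPM in KO tumours and at no more than 10.2 CPM elsewhere (log2 fold change 2.18, SE 0.42, adjusted p = 0.042). That call held in 3 of the 10 fits, with adjusted p = 0.46 without KO tumour replicate 3.

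Among the 12 called genes above all other group means but with overlapping libraries, Leap2 and Cyp2c37 were called in each of the 10 fits without 1 library. Leap2 (chromosome 11, 53422181 to 53423170) encodes a liver peptide that blocks the ghrelin receptor. It was at 1160, 482 and 982 CPM in KO tumours, 264 and 525 in the WT livers, 126 and 86.7 in the KO livers and 122, 259 and 125 in WT tumours. Only KO tumour replicate 2 fell within the range of another group, below the higher WT liver. The log2 fold change was 2.19 (SE 0.29, adjusted p = 0.0037). It was 3.04 against KO liver (SE 0.46, adjusted p = 0.021), one of 12 genes higher in that contrast (0.0759%), which had 0 lower and gave 189 higher without KO tumour replicate 2. The robust fit of edgeR did not call Leap2 against the mean of the other groups (adjusted p = 0.055), and it did call Cyp2c37 (adjusted p = 0.031).

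Thrsp, a regulator of lipid synthesis, Upp2, a uridine phosphorylase, Nudt7, a coenzyme A hydrolase of peroxisomes, and Inmt, a methyltransferase, were also in this set. Their KO tumour libraries overlapped those of the livers. Thrsp was at 522, 395 and 511 CPM in KO tumours, 162 to 440 in the livers and 19, 20.8 and 50.4 in WT tumours, and it passed (log2 fold change 1.77, SE 0.28, adjusted p = 0.016). Upp2 was at 316, 636 and 515 CPM in KO tumours, 90.8 and 223 in the WT livers and 313 and 502 in the KO livers, and its KO tumours thus overlapped only the KO livers (log2 fold change over WT liver 1.64, adjusted p = 0.26). Timm22 and Dennd4a differed from this pattern, being lowest in KO liver. Timm22, a part of the protein import machinery of the mitochondrial inner membrane, was at 1850, 368 and 944 CPM in KO tumours, 361 to 1050 in WT tumours and 32.4 and 50.6 in KO liver. Its spread within the KO tumours was as wide as that across the tumours.

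For 2 further genes the mean above the range came from some of the KO tumours only. The transcript 2310057J18Rik gave 14.3, 0 and 16.9 CPM in KO tumours and no read in the 7 other libraries, and Gm30692 gave 40, 1.12 and 0.433 CPM beside at most 0.82. Both were called in 3 of the 10 fits without 1 library. They are named with their values seen, as are the other called genes outside the naming rule.

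The 28 called genes inside the range fell into 2 patterns, neither of which is a level particular to KO tumours. In 19 of them WT tumours were lowest, and KO tumours stood between them and the highest liver group. These included all 11 called genes of the Mup family, which encodes pheromone-carrying urinary proteins and whose copies are too alike to be counted one by one. Among the 11, Mup-ps17 and Mup-ps18 are named as pseudogenes. Mup genes took 6.38% to 9.74% of all counts in KO tumours, 9.58% to 14.3% in the livers and 0.145% to 0.632% in WT tumours. Sult2a8, a sulfotransferase for bile acids, was at 164, 224 and 156 CPM in KO tumours, 188 to 246 in the livers and 7.31 to 7.5 in WT tumours, and it passed (log2 fold change 1.40, SE 0.16, adjusted p = 0.0021). Cyp4a12b, Elovl3, Cyp2f2 and Slco1b2 had the same order. Of 25 tested male-biased liver genes, 5 were called higher (Cyp4a12b, Elovl3, Mup3, Mup21 and Nudt7) and none lower, and 19 were higher in KO than in WT tumours. Over all genes the shares were 0.285% and 3.25%. The list summed to 25700 to 36800 CPM in KO tumours, 40200 to 51800 in the livers and 2780 to 8830 in WT tumours, without overlap. Elovl3, for one, was at 79.5, 192 and 142 CPM in KO tumours, 391 and 376 in the WT livers and 191 and 160 in the KO livers. No member had all its KO tumour libraries outside the range.

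In the other 9 genes WT tumours were highest and KO tumours came next. They were Cyp2b9, Chmp4c, Ipcef1, Dusp5, Inhbb, Klrb1b, Akr1c18, Fam129a and Scd2. Chmp4c, a membrane remodelling protein that acts in cell division, was at 5.32, 4.05 and 7.5 CPM in KO tumours, 15.7, 30.2 and 22.2 in WT tumours and at most 0.189 in the livers. All KO tumours lay above all livers. KO liver held no read of Chmp4c, so its fold change against that group is no measured size. In all but Cyp2b9, replicate 2 was the lowest of the KO tumours. Scd2, a fatty acid desaturase, was at 214 and 115 CPM in KO tumour replicates 1 and 3, 7.4 in replicate 2 and 1.01 to 13.9 in the livers. Klrb1b, a receptor of NK cells, was at 25.1, 0.908 and 12.7 CPM in KO tumours. It was at 32.4, 73.8 and 36.2 CPM in WT tumours and at most 0.126 in the livers. The list of T and NK cell genes summed to 50.3 to 141 CPM in KO tumours, 29.2 to 56.5 in the livers and 85.8 to 144 in WT tumours. The part of immune cells in the Klrb1b level was not tested.

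Oncofetal markers showed the same dependence on the library. Of 38 tested, only Scd2 was called, where 0.285% of all genes were called higher. No member had its libraries outside the range, and the median log2 fold change was 1.06 beside 0.11 over all genes. It was 2.35 against the mean of both liver groups and -1.24 against WT tumours. Against WT tumours 0 members were higher and 8 lower, where 3.25% and 1.27% of all genes were. The list summed to 420 to 4740 CPM in KO tumours and 4380 to 5190 in WT tumours. In WT liver the sum was 433 to 546 and in KO liver 448 to 592. Afp, the fetal albumin, was at 446, 3.84 and 169 CPM in KO tumours, 146 to 534 in WT tumours and 0.283 to 6.35 in the livers (adjusted p = 0.1). Gpc3, a heparan sulfate proteoglycan of fetal liver, was at 46.9, 0.489 and 48.9 CPM and at 349 to 610 in WT tumours (adjusted p = 0.55). In both, replicate 2 sat with the livers. The imprinted fetal RNA H19 reached 1990 CPM in replicate 1, beside 0.419 and 13.6 in the other KO tumours and 692 at most in WT tumours (adjusted p = 0.076 in edgeR and 0.03 in DESeq2). Glul, the glutamine synthetase of pericentral hepatocytes, was at 783, 932 and 780 CPM in KO tumours, 907 to 1500 in the livers and 55.5 to 119 in WT tumours, hence inside the range (adjusted p = 0.22 in edgeR and 0.044 in DESeq2).

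Dct (chromosome 14, 118012790 to 118052244, minus strand), dopachrome tautomerase of the melanin pathway, was examined with Cyp2b10 as a candidate for a level outside the range. It was at 13.3, 17.8 and 10.9 CPM in KO tumours, 1.95 and 17.4 in the WT livers, 12.4 and 13.6 in the KO livers and 0.0521, 0 and 0.0642 in WT tumours. KO tumours and livers overlapped, and WT tumours held 1, 0 and 1 reads, under the limit that 3 counts set. The fold change against the mean of the other groups did not pass (2.93, SE 0.58, adjusted p = 0.052), while that against WT tumours did (8.16, SE 1.01, adjusted p = 0.00014). DESeq2 called the first (adjusted p = 0.0061), and so did edgeR without either WT liver library (adjusted p = 0.026 and 0.0054). With WT tumours left out of the contrast, the value fell to 0.32 (adjusted p = 0.9). The fitted sizes rest on the few reads in WT tumours. Dct was thus low in WT tumours, while its KO tumour libraries overlapped those of liver. Of the 16 pigment cell genes listed, 6 were tested. Tyr, Tyrp1 and Mlana had no read in any library, and Sox10 none in the KO tumours.

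Below the range, no gene passed edgeR's test, and DESeq2 called 20 genes against the mean of the other groups. Card6 (chromosome 15, 5095981 to 5108539), a caspase recruitment domain protein, was nearest. It was at 3.01, 4.89 and 5.26 CPM in KO tumours, 17.4 and 17.5 in the WT livers, 13.2 and 12.7 in the KO livers and 15.6, 14.9 and 20.1 in WT tumours. The KO tumours did not overlap the 7 other libraries, and their mean was 0.338 times the lowest other group mean. The log2 fold change was -1.83 (SE 0.36, adjusted p = 0.053 in edgeR and 7.3e-05 in DESeq2), and the range p was 0.0025, unadjusted. Against WT tumours the difference passed (-1.94, SE 0.4, adjusted p = 0.0097), and over WT and KO liver it did not (adjusted p = 0.19 and 0.2).

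The other 11 genes named by the same rule had smaller gaps. Proser2 was at 12.1, 17.5 and 15.6 CPM in KO tumours and at 22.2 to 39.2 elsewhere (adjusted p = 0.15), and Nolc1, a nucleolar assembly protein, at 15.3, 16.9 and 10.3 beside 17 to 45.9 (adjusted p = 0.17). Hnrnpa0, an RNA-binding protein, was at 90.8, 117 and 102 CPM beside 122 to 213 (adjusted p = 0.19). Several were higher in WT tumours than in liver, so the KO tumours lay just under liver. The autophagy kinase Ulk1 was at 147, 148 and 114 CPM in KO tumours, 155 to 221 in the livers and 297 to 322 in WT tumours (adjusted p = 0.2). Serpinf2, the plasmin inhibitor, was at 507, 425 and 491 CPM beside 548 to 614 and 919 to 1110 (adjusted p = 0.24), and Serpina1a, an alpha-1-antitrypsin with close copies, at 1550, 1220 and 1580 beside 1630 to 1950 and 2760 to 3730 (adjusted p = 0.28). Scand1, Crip2, Ubald1 and Tpst1 also had all KO tumour libraries below the others, with adjusted p from 0.14 to 0.28.

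**Figure D5:**
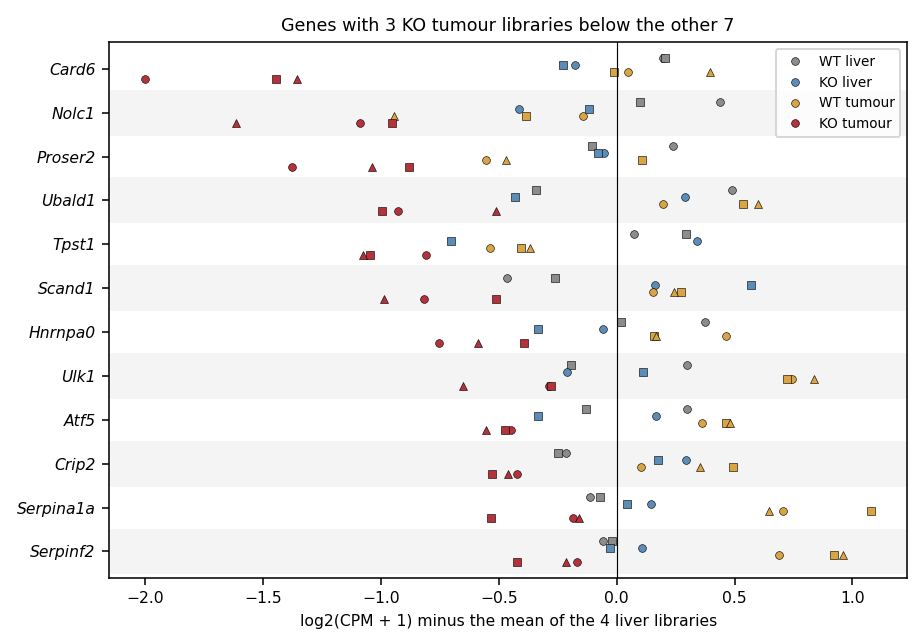
Level per library, as log2(CPM + 1) minus the mean of the 4 liver libraries, of the 12 genes named below the range. All 3 KO tumours lie left of the other 7 libraries in each gene, with the widest gap for Card6, and none passed edgeR's test against the mean of the other groups.

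The stress genes of the unfolded protein and amino acid response gave no call in edgeR. Of 30 tested, 3 had all KO tumour libraries below the others (10% beside 0.721% of all genes) and none above. The KO tumour mean was under all other group means in 11 members and above all of them in 0 (14.9% and 18.2% of all genes). The median log2 fold change was -0.24 beside 0.11 over all genes. It was -0.17 against the mean of both liver groups and -0.78 against WT tumours. The list summed to 5780 to 9120 CPM in KO tumours and 11000 to 12600 in WT tumours. KO tumours overlapped the livers, at 6220 and 15000 in WT liver and 7760 to 8150 in KO liver. The 3 were Atf5, a transcription factor of the stress response, and the endoplasmic reticulum chaperones Pdia4 and Canx. Atf5 was at 385, 379 and 358 CPM in KO tumours, 417 to 648 in the livers and 677 to 734 in WT tumours (adjusted p = 0.2 in edgeR and 0.012 in DESeq2). Pdia4 was at 137, 78.7 and 147 CPM beside 157 to 248 (adjusted p = 0.34), and Canx at 387 to 400 beside 403 to 452 (adjusted p = 0.9).

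Of the 38 tested genes of the MLK and JNK pathway and AP-1, only Dusp5 was called, where 0.285% of all genes were called higher. Dusp5, a phosphatase that acts on ERK, lay between the other groups. Cdc42, a GTPase that activates MLK3, had all KO tumour libraries below the others (2.63% of the list beside 0.721% of all genes). It was at 184, 158 and 181 CPM beside 184 to 266, a gap of less than 1 CPM at its narrowest. Map3k11 lay within the range (log2 fold change -0.07, SE 0.4, adjusted p = 1).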

How the data were processed

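The authors deposited 1 table of whole-number counts of reads per gene for the 10 samples, not normalized, and per the submitters' processing notes the tools were BWA and featureCounts with the mm10 build. Per the labels' protocols, the input was 50 ng of RNA and the kit QuantSeq 3' (stranded), in which reads start near the 3' end and a count depends little on transcript length. How reads shared by several genes were assigned is not stated in the sources used here, and reads without molecular identifiers are not independent molecules. Columns were assigned by their names, and 0 per-sample columns were left out.

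Counts were fitted with edgeR 4.0.16 (R 4.3.3) after filterByExpr (minimum count 10) and TMM scaling, with 1 term per group in all 10 libraries (residual degrees of freedom 6, prior 8.78, common dispersion 0.516). KO tumours were contrasted with the mean of the 3 other groups, with each group, and with all 3 at once by the largest p. Calls are Benjamini-Hochberg adjusted p under 0.05 over all genes. DESeq2 1.42.0 was an alternative. The model was tested on simulated data. Replicates of a group differed by a chi-square of 39.8 to 94.9 per degree of freedom, so none was a repeat of another. Genes named were, per direction, up to 12 called genes with at least 10 CPM and all KO tumour libraries outside the other 7, otherwise the separated genes with the smallest p, up to 3 called members per list, and Cyp2b10, Dct, Cyp2b9, Cyp2b13, Cyp2c55, Map3k11, Glul, Afp and Gpc3. Further genes were named with their values seen. The members and lists were chosen with earlier results of these data known. Positions are from GENCODE M21 on GRCm38, and symbols were matched for 38872 identifiers and not for 184. The lists of T and NK cell, bile duct, hepatocyte and pigment cell genes are given where a result touches them.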

Additional observations from a re-analysis of the deposited data

How the results depend on the processing

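The range test gave 0 genes in each direction under every alternative but the fit on all genes with at least 1 count, where 3 lay above (Cyp2b10, Cyp2c29 and Igf2). KO tumours held 1228, 0 and 7 reads of Igf2, beside 241, 2 and 52 in WT tumours, so its call rests on KO tumour replicate 1. In that fit the prior degrees of freedom became infinite, and counts rose to 356 higher and 22 lower against the mean of the other groups, 317 and 83 against WT liver, 342 and 44 against KO liver, and 435 lower against WT tumours. DESeq2 gave 130 and 20, 249 and 40, 343 and 34, and 772 and 346 in the same order. edgeR's robust fit gave 29 higher against the mean (27 of them among the 45), and 6 higher and 2 lower against WT liver. With each of the 7 other libraries weighing the same, 100 were higher and 1 lower. With WT tumours left out of the contrast, chosen after seeing the data, 79 were higher and 2 lower, and 13 of the 45 were among them. This setting reversed Glul (-0.47), Mup21 (-0.15), Cyp4a12b (-0.49), Cyp2f2 (-0.53), Elovl3 (-0.91) and Map3k11 (0.12), and Map3k11, at -0.07 in the reported fit, ran from -0.21 to 0.15 over the fits that left out 1 library, being 0.10 where WT liver replicate 2 was left out. Beyond the groups compared, the cause was not tested.

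Leaving out 1 library at a time gave 15 to 156 higher and 0 to 3 lower genes against the mean, 0 to 146 and 0 to 11 against WT liver, 3 to 189 and 0 to 13 against KO liver, 345 to 547 and 91 to 269 against WT tumours, and 0 throughout for the range test. The highest counts against the mean and both livers came without KO tumour replicate 2, and the lowest against the mean without replicate 1. Separated genes numbered 190 to 461 above and 130 to 323 below, more by construction since fewer libraries must be passed. Size factors by DESeq2's method and a mean of at least 1 CPM kept all counts within 1.5 times. Of 36 named genes, 30 kept their sign in every alternative.

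The fit with the replicate number as a block gave 37 higher genes, of which 28 were among the 45, and 0 lower. Deviations from the group means showed little correlation between same-numbered samples: over 13 pairs it ran from -0.07 to 0.1 and none exceeded 0.1. Over 24 pairs with different numbers it ran from -0.1 to 0.11. In a group of 2 libraries the deviations mirror each other, so these values are not independent. They cannot decide whether the numbers pair the samples. Depth limits genes near 3 counts, such as Dct in WT tumours.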

Other observations

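Nuclear genes of the respiratory chain and ATP synthase, listed by symbol after the values were seen, lay often at the upper edge. Of 84 tested, none was called by edgeR, 7 had all KO tumour libraries above the others (8.33% beside 0.829% of all genes) and none below. The KO tumour mean was above all other group means in 25 and below them in 0, beside 18.2% and 14.9% of all genes. DESeq2 called Sdhd, Ndufa4, Ndufb4 and Atp5l higher, where it called 150 of all 15811 genes tested in either direction. The median log2 fold change was 0.16 beside 0.11 over all genes. It was -0.08 against the mean of both liver groups and 0.57 against WT tumours. Sdhd, a membrane anchor of complex II, was at 74.5, 73.2 and 79.9 CPM in KO tumours and 31.1 to 59.8 elsewhere (log2 fold change 0.91, SE 0.2, adjusted p = 0.088 in edgeR and 0.019 in DESeq2). Ndufa4, a subunit of complex IV, was at 163, 164 and 178 CPM beside 71.5 to 136 (adjusted p = 0.15 in edgeR and 0.02 in DESeq2). Cox7b was at 353, 261 and 324 CPM beside 160 to 244 (adjusted p = 0.25 in edgeR). The summed level of the list was 18600 to 19500 CPM in KO tumours, 18100 to 19500 in the livers and 11900 to 14600 in WT tumours, so the list as a whole stood at its liver level. Among 76 mitochondrial ribosomal genes 3 lay above and 1 below (3.95% and 1.32%, beside 0.829% and 0.721% of all genes). Among 84 cytosolic ones 0 lay on either side.

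Of 41 tested interferon response genes, the KO tumour mean was above all others in 12 and below in 3, beside 18.2% and 14.9% of all genes, with a median log2 fold change of 0.62, no call in edgeR and no separated member. Their summed level was 1290 to 1940 CPM in KO tumours, 1010 to 1200 in the livers and 2110 to 2260 in WT tumours.

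None of the 11 lists of cell type markers held a call in edgeR. DESeq2 called Dct, Iglc1, Marco, Trbc2, Car1, Hbb-bt and Hbb-bs higher, and Alb and Serpina1a lower. Over all 15811 genes tested it called 150 in this contrast, and none of these markers passed its range test. Of 29 tested T and NK cell genes, Cd8b1 had all KO tumours above the other libraries (3.45% beside 0.829% of all genes). It was at 3.01, 2.79 and 2.74 CPM beside at most 2.40, a narrow gap at a low level. The 29 macrophage genes summed to 920 to 1640 CPM in KO tumours, 698 to 1050 in the livers and 1320 to 2170 in WT tumours. Neutrophil genes summed to 24.2 to 215 CPM in KO tumours, overlapping WT tumours at 63.6 to 235. WT liver summed to 27.2 to 30.3 CPM and KO liver to 14.5 to 14.7. Within the KO tumours, S100a8 was at 148 and 110 CPM in replicates 1 and 3 and at 9.22 in replicate 2.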
